A study of Mus musculus with 12 samples.

Results

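Cytochrome P450 enzymes of families 1 to 4 were examined in mouse kidney after injury by an iodinated contrast agent. Members were the rows of 2 deposited FPKM tables whose gene was protein-coding and had a symbol of family 1, 2, 3 or 4. There were 77 members over both tables, 61 of them in both. The PAD4 table listed 73 of them (3, 43, 7 and 20 of families 1 to 4) among 32199 rows. The IL-33 table listed 65 (3, 39, 5 and 18) among 31719 rows. Cyp2c38, Cyp2c67, Cyp2g1 and Cyp3a25 were listed in the IL-33 table alone, and 12 members, such as Cyp2c65, Cyp4a29 and Cyp4f40, in the PAD4 table alone. The 12 poly(A) RNA-seq libraries of kidney tissue fell into 4 groups of 3. They were Padi4 knockout mice (called PAD4 knockout) and the wild-type C57BL/6 mice of their set, both batch 1, and Il33 knockout mice and the wild-type C57BL/6 mice of theirs, both batch 2. All were males aged 8 weeks that had 1 kidney removed, recovered for 3 weeks, went 24 h without water, and were given the diuretic furosemide 20 min before iodixanol, the contrast agent. Kidneys were taken 24 h after iodixanol, and no uninjured group was analysed here. The labels name no conditional allele or Cre driver for either knockout, and they do not say whether replicates come from separate litters or days, so that p-values measure the spread between these libraries. Each knockout was compared with the wild-type libraries of its own table, and batch and set are the same split.

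P450 enzymes are haem proteins of the endoplasmic reticulum that insert an oxygen atom into their substrates, with electrons from the reductase Por and, for some members, from cytochrome b5. Families 1 to 3 are best known for oxidising drugs, pollutants and steroids, whereas family 4 hydroxylates the end of fatty acid chains. In the kidney most of them act in the proximal tubule. There, Cyp2c and Cyp2j epoxygenases turn arachidonic acid into epoxides that dilate vessels and raise sodium excretion, and Cyp4a enzymes turn it into a hydroxylated product that constricts vessels. Several mouse members differ between the sexes and follow androgens, and Cyp4a genes are textbook targets of the fatty acid receptor PPAR-alpha.

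Promoters of Cyp2a4 and Cyp2a5 are printed because these 2 genes held the highest FPKM of all members in the PAD4 table, are nearly identical copies, and did not change alike in the IL-33 table. Cyp2a4 is a testosterone hydroxylase and Cyp2a5 oxidises coumarin, nicotine and bilirubin. Each line gives the 250 bases before the transcription start, 5′ to 3′ on the plus strand, from RefSeq on GRCm38.p6: chr7:26306942-26307191 for Cyp2a4 and chr7:26835089-26835338 for Cyp2a5. Capitals mark the 4 bases that differ among 249 aligned.
Cyp2a4: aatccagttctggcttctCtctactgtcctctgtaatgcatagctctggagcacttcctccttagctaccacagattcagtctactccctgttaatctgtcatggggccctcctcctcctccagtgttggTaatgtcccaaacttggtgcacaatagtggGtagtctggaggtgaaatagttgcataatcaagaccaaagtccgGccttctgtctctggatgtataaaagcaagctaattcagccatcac
Cyp2a5: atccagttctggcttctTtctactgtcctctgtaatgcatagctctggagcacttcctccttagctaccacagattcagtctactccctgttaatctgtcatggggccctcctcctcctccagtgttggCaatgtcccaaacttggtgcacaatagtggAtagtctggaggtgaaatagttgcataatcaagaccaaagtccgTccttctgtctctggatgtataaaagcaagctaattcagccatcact
Counted from 1 at the 5′ end of the Cyp2a4 window, the differences were C19T, T131C, G161A and G205T (Cyp2a4 base first). The letters TATAAA, searched on both strands, stood at -28 to -23 in Cyp2a4 and at -29 to -24 in Cyp2a5 relative to the start. They occurred in 12.4% of 32851 RefSeq windows of the same length and in 36.2% of the 69 windows of members, which covered 63 of the 77 members. Protein-coding transcripts (GENCODE vM21) of Cyp2a4 and Cyp2a5 were 98.3% identical, those of Cyp4a12a and Cyp4a12b 98.3%, those of Cyp4a10 and Cyp4a32 97.2% and those of Cyp4a10 and Cyp4a31 95.7%. How the authors shared reads between such copies is not stated, and the split within each pair is uncertain.

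The tables differed in scale. Total FPKM was 700601 to 812981 over the PAD4-table libraries and 385124 to 420279 over those of the IL-33 table, with 52.0% to 60.0% and 24.1% to 29.2% of it from mitochondrially encoded genes. Levels were therefore never tested across tables, and sequencing depth is unknown from FPKM. Padi4 was at 0.217, 0.497 and 0.187 FPKM in PAD4 knockout libraries, against 0.704, 1.06 and 1.67 in wild-type libraries, and changed by -0.71 ± 0.19 (SE, adjusted p = 0.0147). It was thus lower but still detected in every PAD4 knockout library. What part the lower neutrophil markers given below have in the Padi4 values was not tested. Il33 was at 1.14, 0.616 and 1.02 FPKM in libraries labelled IL-33 knockout, against 1.71, 1.13 and 3.64 in wild-type libraries. These values overlap and did not pass the test, so the group is called labelled IL-33 knockout. Markers of other tissues stood in the PAD4 table. All 14 colon and intestine markers were listed, none of them at 0 in all 6 libraries, with sums of 151, 382 and 237 FPKM in PAD4 knockout libraries, against 688, 985 and 1113 in wild-type libraries, and all 14 were lower in the PAD4 knockout. Of 10 lung markers, again with none at 0 in all 6 libraries, 9 were lower, with sums of 61.9, 212 and 43.1 FPKM in PAD4 knockout libraries, against 298, 852 and 501 in wild-type libraries. Of 19 tested proximal tubule markers 11 were higher and 0 lower, with sums of 776, 329 and 642 FPKM in PAD4 knockout libraries, against 174, 214 and 231 in wild-type libraries. Of the other lists, 7 of 8 fibroblast, 7 of 8 smooth muscle, 6 of 11 neutrophil and 4 of 9 macrophage markers tested were lower in the PAD4 knockout, 0 of 8 endothelial markers changed, and 1 of 9 liver markers was higher. Xist, which females transcribe, was at 0.401, 1.52 and 0.389 FPKM in PAD4 knockout libraries, against 2.00, 1.78 and 4.97 in wild-type libraries, although the labels give males, and the Y-linked Ddx3y was at 1.97 to 2.70 FPKM in all 6. In the IL-33 table Xist was at most 0.0151 FPKM. What part these markers have in the P450 values was not tested.

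Few genes carried most of the P450 signal. Members summed to 2321, 1119 and 902 FPKM in PAD4 knockout libraries, against 392, 449.9 and 587 in wild-type libraries, and Cyp2a4, Cyp2a5 and Cyp4a10 made up 73.5% of the summed means in PAD4 knockouts and 52.3% in wild types. In the IL-33 table the sums were 2341, 2344 and 2229 FPKM in labelled IL-33 knockout libraries, against 4018, 3948 and 3168 in wild-type libraries. There Cyp2j5, Cyp2a4 and Cyp4a10 led in the labelled IL-33 knockout, with 44.7% of the summed means, and Cyp2a5, Cyp4a14 and Cyp4a10 led in wild types, with 52.6%. The PAD4 knockout sums lay above every wild-type sum of their table, and the labelled IL-33 knockout sums below every wild-type sum of theirs. Families 2 and 4 held almost all of this. Family 3 summed to 0.236, 1.61 and 1.02 FPKM in PAD4 knockout libraries, against 2.86, 4.52 and 4.93 in wild-type libraries, all wild types being above all knockouts. In the IL-33 table no family 3 member had a mean of 0.5 FPKM over the 6 libraries.

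**Figure D1:**
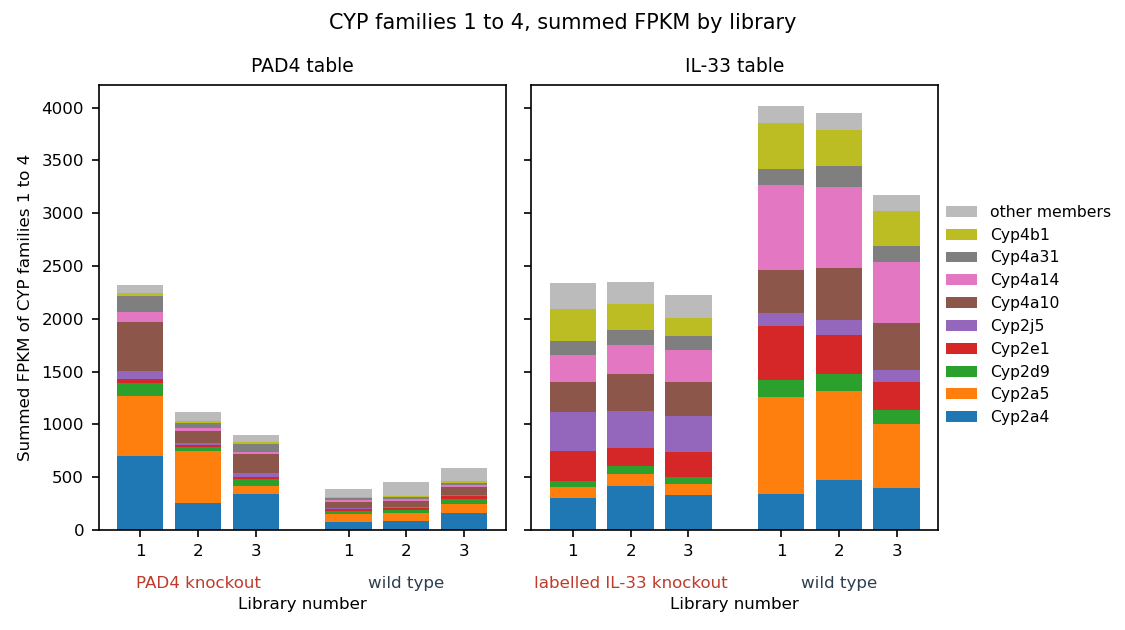
Stacked bars give the summed FPKM of all members in each library, with the knockout left of its wild type in each table and 9 abundant members in their own colours. PAD4 knockout library 1 reached 2321 FPKM, and wild types of the IL-33 table reached 3168 to 4018 FPKM.

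In the PAD4 knockout, the 3 most abundant P450s, Cyp2a4, Cyp2a5 and Cyp4a10, were higher than in wild-type kidneys, together with Cyp4a12a, Cyp4a12b, Cyp4a31 and the epoxygenases Cyp2j5 and Cyp2c23. The abundant Cyp2d9, Cyp2e1, Cyp4a14 and Cyp4b1 did not pass. Members of Cyp2c, Cyp2d, Cyp2f and Cyp3a were lower, with Cyp2c55 the most abundant of them. Of 38 members tested (mean FPKM of at least 0.5 over 6 libraries), 10 were higher and 10 lower by limma on log2(FPKM + 1), with an adjusted p under 0.05 over all 13986 genes tested. Among the called members, Cyp2c23, Cyp2j13 and Cyp4a12b had wild-type means under 0.5 FPKM and reached the filter through the knockouts. Cyp4f40 had a knockout mean under 0.5 FPKM and reached it through the wild types. Of all genes tested 8.89% were higher and 8.79% lower, and 17.7% were called in either direction, against 52.6% of the members. The median change was 0.05 over members and 0.02 over all genes. Changes are given as knockout minus wild type in log2(FPKM + 1) with their SE, and for low genes this scale understates the fold. Without wild-type library 1, 3 members, Cyp4a12a, Cyp4a12b and Cyp4a31, passed as higher. Calls fell over the whole table in that setting, with 357 of 13986 genes higher, against 1243 with all 6 libraries. With every listed gene tested, 0 members and 0 of 32199 genes passed in limma, although 14 members were higher and 12 lower at an unadjusted p under 0.05.

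Among the family 4 fatty acid hydroxylases, 4 of 13 tested members were higher and 2 lower. Cyp4a12a (ENSMUSG00000066071), the main maker of vasoconstrictor hydroxy-arachidonate in male mice, was at 9.78, 6.95 and 6.91 FPKM in PAD4 knockout libraries, against 0.690, 0.715 and 1.72 in wild-type libraries. Its change was 2.14 ± 0.25 (SE, adjusted p = 4.11e-05), and its mean stood at 757% of the wild-type mean. The groups were far apart, with every knockout library above every wild-type one. Its copy Cyp4a12b was at 4.65, 3.37 and 2.10 FPKM in PAD4 knockout libraries, against 0.314, 0.259 and 0.623 in wild-type libraries, a change of 1.61 ± 0.23 (SE, adjusted p = 0.000166). Cyp4a10 (ENSMUSG00000066072), a fatty acid hydroxylase raised by PPAR-alpha, was at 469, 112 and 179 FPKM in PAD4 knockout libraries, against 55.4, 58.0 and 75.9 in wild-type libraries. Its change was 1.74 ± 0.42 (SE, adjusted p = 0.0076), with library 1 far above the other knockouts. Cyp4a31, close to Cyp4a10 in sequence, was at 159.6, 50.1 and 80.0 FPKM in PAD4 knockout libraries, against 15.3, 19.1 and 23.8 in wild-type libraries, a change of 2.12 ± 0.38 (SE, adjusted p = 0.00108). Neither gene overlapped between groups. Cyp4a14, the other PPAR-alpha-responsive member, was at 86.0, 27.7 and 17.7 FPKM in PAD4 knockout libraries, against 17.9, 13.5 and 18.4 in wild-type libraries. Its change of 1.04 ± 0.42 (SE, adjusted p = 0.0959) did not pass, and library 1 stood high while library 3 overlapped the wild types. Cyp4b1, which hydroxylates shorter fatty acids and activates some lung toxicants, was at 24.9, 21.9 and 16.3 FPKM in PAD4 knockout libraries, against 11.9, 16.3 and 12.9 in wild-type libraries, a change of 0.57 ± 0.29 (SE, adjusted p = 0.194) that did not pass. The groups overlapped slightly.

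In family 2, 6 of 23 tested members were higher and 7 lower. Cyp2a4 (ENSMUSG00000074254) was at 704, 258 and 340.2 FPKM in PAD4 knockout libraries, against 75.5, 81.5 and 157 in wild-type libraries, a change of 1.99 ± 0.40 (SE, adjusted p = 0.0022). All knockout libraries lay above all wild types. Cyp2a5 (ENSMUSG00000005547) was at 562, 486 and 79.8 FPKM in PAD4 knockout libraries, against 74.3, 78.5 and 91.9 in wild-type libraries, a change of 1.77 ± 0.52 (SE, adjusted p = 0.0229). Knockout library 3 lay among the wild types, and the call was lost in 7 of 17 other settings, among them median-of-ratios and quantile scaling. Cyp2j5 (ENSMUSG00000052520), an abundant renal epoxygenase, was at 78.2, 15.3 and 41.9 FPKM in PAD4 knockout libraries, against 9.99, 8.49 and 11.1 in wild-type libraries, a change of 1.82 ± 0.42 (SE, adjusted p = 0.00561). The groups did not overlap. Its relative Cyp2j11 was at 9.93, 1.86 and 6.20 FPKM in PAD4 knockout libraries, against 1.45, 1.61 and 2.00 in wild-type libraries, a change of 1.18 ± 0.34 (SE, adjusted p = 0.0216). The groups overlapped through knockout library 2, and this call too was lost in 7 of 17 other settings, both of those scalings included. Cyp2j13 was low but even, at 1.02, 1.04 and 1.08 FPKM in PAD4 knockout libraries, against 0.287, 0.262 and 0.458 in wild-type libraries, a change of 0.62 ± 0.17 (SE, adjusted p = 0.0138). Its wild-type mean of 0.336 FPKM was under the filter value. The call was lost in 5 of 16 other settings, among them without wild-type library 1 or 2. Cyp2c23 (ENSMUSG00000025197), the main renal epoxygenase of the Cyp2c subfamily, was at 3.10, 0.976 and 2.60 FPKM in PAD4 knockout libraries, against 0.255, 0.439 and 0.399 in wild-type libraries, a change of 1.18 ± 0.23 (SE, adjusted p = 0.00205). Its mean stood at 611% of the wild-type mean, without overlap.

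Among abundant family 2 members that did not pass, Cyp2d9, a steroid hydroxylase of male liver and kidney, was at 124, 37.0 and 60.2 FPKM in PAD4 knockout libraries, against 30.7, 26.7 and 46.4 in wild-type libraries, a change of 0.94 ± 0.39 (SE, adjusted p = 0.109). Cyp2e1, which oxidises ethanol and small toxicants, was at 35.9, 25.9 and 18.4 FPKM in PAD4 knockout libraries, against 19.4, 22.4 and 21.6 in wild-type libraries, a change of 0.28 ± 0.31 (SE, adjusted p = 0.602). Both overlapped between groups. The 10 members that passed as higher shared a pattern over libraries: 9 of 10 were highest in library 1 among the knockouts. Their summed FPKM was 2001, 936 and 740.0 in PAD4 knockout libraries, against 233, 249 and 365 in wild-type libraries. Summed proximal tubule markers were also highest in library 1 among the knockouts and lowest in library 2. Cyp2a4, Cyp2c23, Cyp2j5, Cyp2j11, Cyp4a10 and Cyp4a31 had that same order. Cyp2a5, Cyp4a12a and Cyp4a12b were lowest in library 3 instead, and Cyp2j13 in library 1. In bulk tissue, fewer cells of a type and less RNA per cell cannot be told apart.

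**Figure D2:**
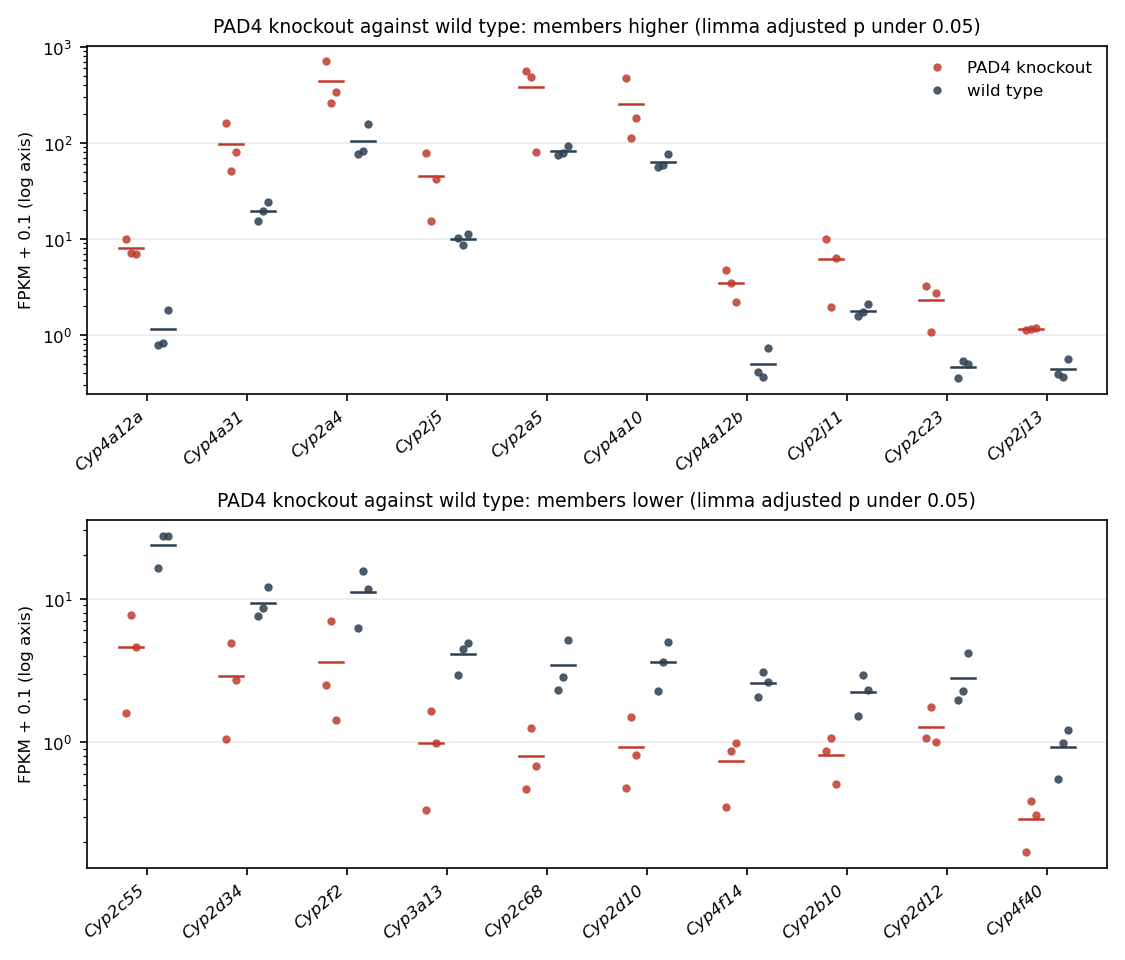
FPKM plus 0.1 on a log axis for the members called higher (upper panel) and lower (lower panel), with a point for each of 3 PAD4 knockout (left) and 3 wild-type (right) libraries and a line at each mean. Cyp4a12a separates the groups at 6.91 to 9.78 against 0.690 to 1.72 FPKM, whereas Cyp2a5 overlaps through knockout library 3.

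The 10 members that were lower in the PAD4 knockout included 7 of family 2, 1 of family 3 and 2 of family 4. Cyp2c55 (ENSMUSG00000025002), a fatty acid hydroxylase best known from colon, was at 1.49, 7.55 and 4.50 FPKM in PAD4 knockout libraries, against 16.4, 27.4 and 27.4 in wild-type libraries, a change of -2.30 ± 0.37 (SE, adjusted p = 0.000461). The Cyp2c sum was 5.05, 10.2 and 8.46 FPKM in PAD4 knockout libraries, against 20.1, 35.4 and 33.5 in wild-type libraries. Cyp2c55 carried most of it except in knockout library 1, where Cyp2c23, which was higher in the knockout, stood at 3.10 FPKM. The mean of Cyp2c55 stood at 19.0% of the wild-type mean, and every wild type was far above every knockout. Cyp2c68 was at 0.369, 1.15 and 0.581 FPKM in PAD4 knockout libraries, against 2.19, 2.72 and 5.06 in wild-type libraries, a change of -1.31 ± 0.25 (SE, adjusted p = 0.0015). Cyp2d34 was at 0.947, 4.81 and 2.61 FPKM in PAD4 knockout libraries, against 7.49, 8.47 and 11.9 in wild-type libraries, a change of -1.56 ± 0.32 (SE, adjusted p = 0.00298). Neither gene overlapped between groups. Cyp2d10 was at 0.379, 1.38 and 0.711 FPKM in PAD4 knockout libraries, against 2.16, 3.52 and 4.89 in wild-type libraries, a change of -1.30 ± 0.25 (SE, adjusted p = 0.00183). Cyp2d12 was at 0.966, 1.64 and 0.895 FPKM in PAD4 knockout libraries, against 1.86, 2.16 and 4.08 in wild-type libraries, a change of -0.74 ± 0.24 (SE, adjusted p = 0.0374). The wild types were higher in each case, with a narrow gap for Cyp2d12, whose call was lost in 8 of 16 other settings.

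Cyp3a13, the member of its subfamily found along the mouse gut, was at 0.236, 1.55 and 0.885 FPKM in PAD4 knockout libraries, against 2.81, 4.38 and 4.77 in wild-type libraries, a change of -1.44 ± 0.26 (SE, adjusted p = 0.00109). It was the single family 3 member that passed the filter. Cyp2f2, the naphthalene-oxidising enzyme of airway club cells, was at 2.40, 6.90 and 1.32 FPKM in PAD4 knockout libraries, against 6.13, 15.6 and 11.6 in wild-type libraries, a change of -1.52 ± 0.38 (SE, adjusted p = 0.00873). Knockout library 2 overlapped the wild types, and the call was lost without wild-type library 3 and under median-of-ratios scaling. Cyp2b10, the standard target of the receptor CAR, was at 0.763, 0.962 and 0.408 FPKM in PAD4 knockout libraries, against 1.41, 2.82 and 2.21 in wild-type libraries, a change of -0.87 ± 0.21 (SE, adjusted p = 0.00886). Cyp4f14, which hydroxylates the leukocyte attractant leukotriene B4, was at 0.250, 0.771 and 0.889 FPKM in PAD4 knockout libraries, against 1.97, 2.97 and 2.51 in wild-type libraries, a change of -1.10 ± 0.21 (SE, adjusted p = 0.00167). Both were lower in every knockout library. Cyp4f40 was at 0.0703, 0.290 and 0.212 FPKM in PAD4 knockout libraries, against 0.450, 0.877 and 1.12 in wild-type libraries, a change of -0.59 ± 0.17 (SE, adjusted p = 0.0235), at levels near the filter. Its call was lost in 6 of 16 other settings.

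Knockout library 2 was the highest of its group for 9 of these 10 members. Their summed FPKM was 7.87, 27.0 and 13.0 in PAD4 knockout libraries, against 42.8, 70.9 and 75.5 in wild-type libraries. Summed colon markers and summed lung markers were highest in library 2 among the knockouts. Scgb1a1, a lung marker, was at 35.8, 119.9 and 25.5 FPKM in PAD4 knockout libraries, against 177, 535 and 266 in wild-type libraries. The sums of fibroblast, smooth muscle, neutrophil and macrophage markers were highest in library 2 too. Of the colon markers, Lgals4 was highest in knockout library 1 instead, and Fabp2 and, narrowly, Reg3b in knockout library 3. Colon, fibroblast and smooth muscle sums had the same order over the wild-type libraries as the P450 sum. Of the 14 colon markers, 8 were listed in the IL-33 table. They summed to 5.78 to 7.91 FPKM in labelled IL-33 knockouts and 20.4 to 41.4 FPKM in wild types. Lgals4 carried most of the wild-type sums, at 18.8, 39.1 and 20.5 FPKM in wild-type libraries. Of the 3 colon markers tested there, Lgals4 alone was lower, and Guca2a and Fcgbp did not pass. Cyp2c55 was listed at 0 in all 6 libraries of the IL-33 table. There Cyp2d34 reached 0.0523 FPKM, Cyp2c68 0.0560 FPKM and Cyp2d10 0.317 FPKM at most. Other members of the group were present there: Cyp2d12 at 3.86 to 12.4 FPKM, Cyp2b10 at up to 8.47 FPKM in wild types, and Cyp2f2 at 0.378 to 1.48 FPKM. The part of any of these markers in the lower calls was not tested.

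**Figure D3:**
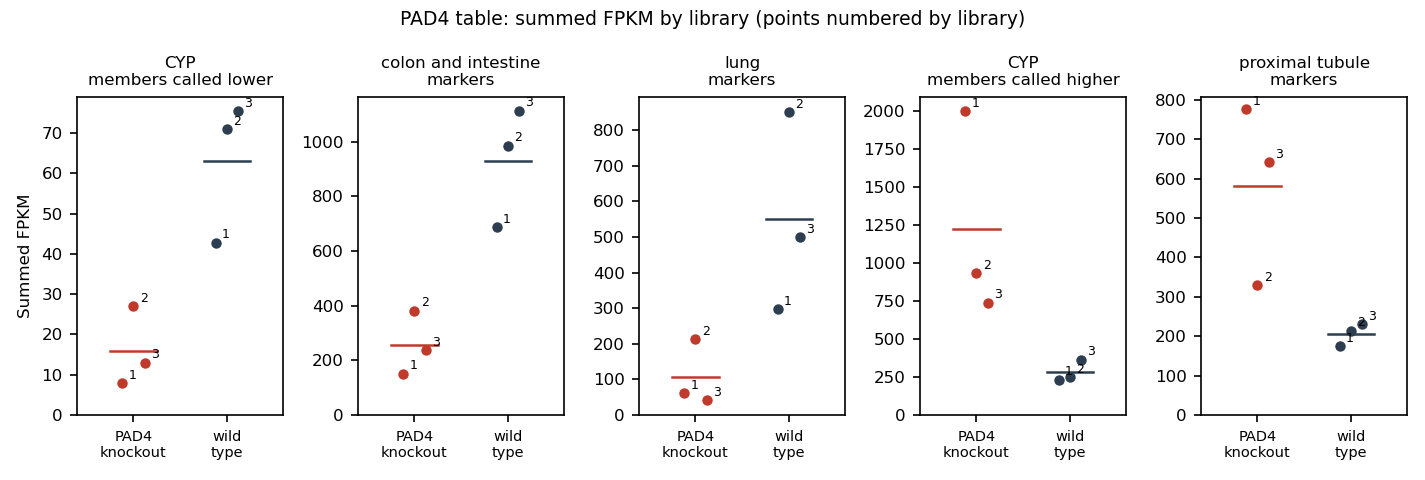
Summed FPKM in each PAD4-table library (points numbered by library, line at the mean, PAD4 knockout left of wild type) for the members called lower, colon and intestine markers, lung markers, the members called higher, and proximal tubule markers. Knockout library 2 is the highest of its group in the first 3 panels, and knockout library 1 in the last 2.

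Of the 18 tested members that did not pass, changes ran from -0.91 to 1.04. Next to the threshold stood Cyp2c65, with a change of -0.91 ± 0.32 (SE, adjusted p = 0.0525). Cyp2u1, a fatty acid hydroxylase, was at 1.87, 0.778 and 1.36 FPKM in PAD4 knockout libraries, against 0.312, 0.768 and 0.661 in wild-type libraries, without overlap, and its change was 0.55 ± 0.20 (SE, adjusted p = 0.0704). Over the 38 tested members, 10 were higher and 10 lower without overlap between groups, against 17.2% and 15.8% of all genes. The other 35 listed members were under the filter, with means of at most 0.319 FPKM. Some of these, named after their values were seen, were apart between groups. Cyp1a1, the classical target of the aryl hydrocarbon receptor AhR, was at 0.462, 0.302 and 0.490 FPKM in PAD4 knockout libraries, against 0.0557, 0.139 and 0.246 in wild-type libraries, without overlap. Cyp2b9, a female-predominant member, was at 0.395, 0.365 and 0.212 FPKM in PAD4 knockout libraries, against 0.0749, 0.133 and 0.0804 in wild-type libraries, also without overlap. Cyp1b1, the mesenchymal member of family 1, was tested at 0.823, 2.21 and 2.48 FPKM in PAD4 knockout libraries, against 3.35, 9.47 and 1.06 in wild-type libraries, a change of -0.73 ± 0.40 (SE, adjusted p = 0.225).

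Other genes of the P450 pathways were read from lists. Beside their counts stand the shares of all genes tested in the PAD4 table, 8.89% higher and 8.79% lower. Of 7 redox partners 1 was higher and 0 lower. Cyb5a, the cytochrome b5 that donates electrons to P450s, was at 198, 93.3 and 112 FPKM in PAD4 knockout libraries, against 13.7, 14.8 and 16.4 in wild-type libraries, a change of 3.01 ± 0.34 (SE, adjusted p = 2.72e-05). Por, their reductase, was at 28.9, 20.0 and 19.3 FPKM in PAD4 knockout libraries, against 21.1, 21.7 and 21.8 in wild-type libraries, and it did not pass. Of 18 tested receptors and factors that drive P450 genes 2 were higher and 1 lower, near the shares of all genes. The CAR gene Nr1i3 changed by 0.70 ± 0.19 (SE, adjusted p = 0.0147) and Cebpb, a stress-responsive factor, by -1.11 ± 0.31 (SE, adjusted p = 0.0161). PPAR-alpha targets outside the P450s split: of 15 tested, 4 were higher and 2 lower. Acadm, a beta-oxidation enzyme, was at 224, 68.0 and 142 FPKM in PAD4 knockout libraries, against 5.91, 6.63 and 7.53 in wild-type libraries, a change of 4.09 ± 0.37 (SE, adjusted p = 3.97e-06). Pdk4, which restrains glucose oxidation, changed by -1.68 ± 0.34 (SE, adjusted p = 0.00253). Androgen-raised kidney genes were higher for 5 of 8 and lower for 1, among them Slc22a30 with 2.57 ± 0.35 (SE, adjusted p = 0.000133) and Slco1a1 with 0.99 ± 0.18 (SE, adjusted p = 0.00109). The lower one was Aoc1, with -1.67 ± 0.31 (SE, adjusted p = 0.00121). Of 3 tested AhR targets outside the P450s, 0 were higher and 2 lower, Ugt1a6a with -1.38 ± 0.34 (SE, adjusted p = 0.00888) and Tiparp with -0.85 ± 0.26 (SE, adjusted p = 0.0276). Of 15 eicosanoid enzymes 1 was higher and 4 lower, with Alox5ap, a partner of leukotriene synthesis, at -1.40 ± 0.27 (SE, adjusted p = 0.00155), prostacyclin synthase Ptgis at -1.09 ± 0.26 (SE, adjusted p = 0.00794) and Alox15 at -1.12 ± 0.29 (SE, adjusted p = 0.0117). Of 9 P450s of higher families 3 were higher, led by the oxysterol hydroxylase Cyp7b1, which changed by 2.39 ± 0.52 (SE, adjusted p = 0.00384), and the others were Cyp24a1, with 0.89 ± 0.24 (SE, adjusted p = 0.0149), and Cyp46a1, with 0.76 ± 0.21 (SE, adjusted p = 0.017).

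In the labelled IL-33 knockout, the PPAR-alpha-responsive Cyp4a10 and Cyp4a14, Cyp2a5 and Cyp2b10 were lower than in wild-type kidneys, and the epoxygenases Cyp2c23 and Cyp2j5 with their relatives Cyp2j11 and Cyp2j13 were higher. Of 31 members tested, 7 were higher and 11 lower in limma, among 14513 genes. Cyp2b10 reached the filter of 0.5 FPKM through the wild types and Cyp4f14 through the knockouts, each with a mean under 0.5 FPKM in the other group. This table had many calls: 22.2% of all genes were higher and 16.8% lower, and 39.1% were called in either direction, against 58.1% of the members. The share of members called higher was near that of all genes, and the excess lay in the lower calls. The median change was -0.20 over members and 0.04 over all genes. With 1 library left out in turn, 5 to 8 members were higher and 8 to 10 lower.

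Cyp2a5 was at 97.8, 108 and 99.997 FPKM in labelled IL-33 knockout libraries, against 914, 843 and 599 in wild-type libraries, a change of -2.91 ± 0.16 (SE, adjusted p = 2.72e-05). Its mean stood at 13.0% of the wild-type mean, and every knockout library lay far below every wild type. Cyp2a4, its near-identical copy, was at 305, 419.6 and 334 FPKM in labelled IL-33 knockout libraries, against 341, 476 and 401 in wild-type libraries, a change of -0.20 ± 0.16 (SE, adjusted p = 0.35) that did not pass. The ratio of Cyp2a5 to Cyp2a4 FPKM was 0.321, 0.256 and 0.299 in labelled IL-33 knockout libraries, against 2.68, 1.77 and 1.50 in wild-type libraries. In the PAD4 table the same ratio was 0.799, 1.89 and 0.235 in PAD4 knockout libraries, against 0.984, 0.964 and 0.586 in wild-type libraries. The ratios were thus apart in the IL-33 table and overlapped in the PAD4 table. Cyp2b10 was at 0.0640, 0.130 and 0 FPKM in labelled IL-33 knockout libraries, against 8.47, 7.95 and 3.55 in wild-type libraries, a change of -2.78 ± 0.27 (SE, adjusted p = 0.000284). It was nearly absent from the knockout libraries, at 0.970% of the wild-type mean. The steroid hydroxylase Cyp2d9 was at 59.7, 81.2 and 68.2 FPKM in labelled IL-33 knockout libraries, against 162, 161 and 137 in wild-type libraries, a change of -1.13 ± 0.13 (SE, adjusted p = 0.000551). Cyp2d22 was at 7.88, 7.86 and 8.72 FPKM in labelled IL-33 knockout libraries, against 16.1, 15.4 and 13.7 in wild-type libraries, a change of -0.81 ± 0.10 (SE, adjusted p = 0.000821). Neither overlapped between groups. Cyp2j9 was at 4.77, 4.69 and 4.82 FPKM in labelled IL-33 knockout libraries, against 10.4, 7.79 and 5.85 in wild-type libraries, a change of -0.62 ± 0.18 (SE, adjusted p = 0.0294), while Cyp2j5, Cyp2j11 and Cyp2j13 were higher. Its call was lost in 6 of 17 other settings, among them without each knockout library in turn.

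In family 4, Cyp4a14 (ENSMUSG00000028715) was at 256, 272 and 303 FPKM in labelled IL-33 knockout libraries, against 807, 766 and 577 in wild-type libraries, a change of -1.36 ± 0.14 (SE, adjusted p = 0.000391). The labelled IL-33 knockout kidneys held 38.7% of the wild-type mean, without overlap. Cyp4a10 was at 283, 351 and 324 FPKM in labelled IL-33 knockout libraries, against 409, 499 and 438 in wild-type libraries, a change of -0.49 ± 0.12 (SE, adjusted p = 0.0137), smaller than that of Cyp4a14 and lost without knockout library 1. The ratio of Cyp4a14 to Cyp4a10 was 0.904, 0.774 and 0.937 in labelled IL-33 knockout libraries, against 1.97, 1.53 and 1.32 in wild-type libraries, without overlap. Cyp4a32 was at 5.86, 4.58 and 6.43 FPKM in labelled IL-33 knockout libraries, against 7.10, 8.46 and 11.0 in wild-type libraries, a change of -0.57 ± 0.17 (SE, adjusted p = 0.0357) that was lost in 9 of 17 other settings. Cyp4f17 was at 2.54, 1.77 and 2.88 FPKM in labelled IL-33 knockout libraries, against 18.4, 7.15 and 6.69 in wild-type libraries, a change of -1.67 ± 0.34 (SE, adjusted p = 0.0073). Wild-type library 1 was far above the others, yet the groups did not overlap. Cyp4v3, a fatty acid hydroxylase whose human relative is mutated in a retinal dystrophy, was at 1.98, 2.35 and 1.76 FPKM in labelled IL-33 knockout libraries, against 3.79, 3.87 and 3.63 in wild-type libraries, a change of -0.66 ± 0.12 (SE, adjusted p = 0.00397). Cyp4b1 was at 312, 251 and 169 FPKM in labelled IL-33 knockout libraries, against 439, 349 and 336 in wild-type libraries, a change of -0.65 ± 0.22 (SE, adjusted p = 0.0478). This call was borderline and was lost in 13 of 17 other settings.

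Among the members that were higher, Cyp2c23 was at 11.2, 8.12 and 11.5 FPKM in labelled IL-33 knockout libraries, against 0.859, 1.45 and 0.739 in wild-type libraries, a change of 2.48 ± 0.18 (SE, adjusted p = 9.02e-05). Every knockout library was several-fold above every wild type. Cyp2j5 was at 374, 354 and 344 FPKM in labelled IL-33 knockout libraries, against 116, 140.2 and 116 in wild-type libraries, a change of 1.52 ± 0.10 (SE, adjusted p = 6.53e-05), and became the most abundant member of the labelled IL-33 knockout. Cyp2j11 was at 59.1, 60.5 and 61.0 FPKM in labelled IL-33 knockout libraries, against 14.7, 22.3 and 20.9 in wild-type libraries, a change of 1.61 ± 0.15 (SE, adjusted p = 0.000236). For both genes the libraries of a group lay close together and the groups far apart. Cyp2j13 was at 20.8, 14.5 and 11.8 FPKM in labelled IL-33 knockout libraries, against 8.47, 6.04 and 6.39 in wild-type libraries, a change of 1.05 ± 0.21 (SE, adjusted p = 0.00602). Cyp2d26 was at 50.04, 33.8 and 44.5 FPKM in labelled IL-33 knockout libraries, against 8.42, 9.29 and 7.92 in wild-type libraries, a change of 2.18 ± 0.15 (SE, adjusted p = 7.02e-05). The ratio of Cyp2d26 to Cyp2d9 was 0.838, 0.416 and 0.653 in labelled IL-33 knockout libraries, against 0.0522, 0.0577 and 0.0577 in wild-type libraries, so these Cyp2d members went opposite ways. Low-level calls were Cyp2u1, at 1.43, 1.30 and 1.51 FPKM in labelled IL-33 knockout libraries, against 0.432, 0.978 and 0.808 in wild-type libraries and a change of 0.49 ± 0.14 (SE, adjusted p = 0.0321), and Cyp4f14, at 0.861, 0.713 and 1.02 FPKM in labelled IL-33 knockout libraries, against 0.208, 0.408 and 0.491 in wild-type libraries and a change of 0.45 ± 0.13 (SE, adjusted p = 0.0283). Both were higher in every knockout library. The Cyp2u1 call was lost in 6 of 16 other settings, among them without each knockout library in turn. That of Cyp4f14 was lost in 4 of 16, among them without a filter.

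**Figure D4:**
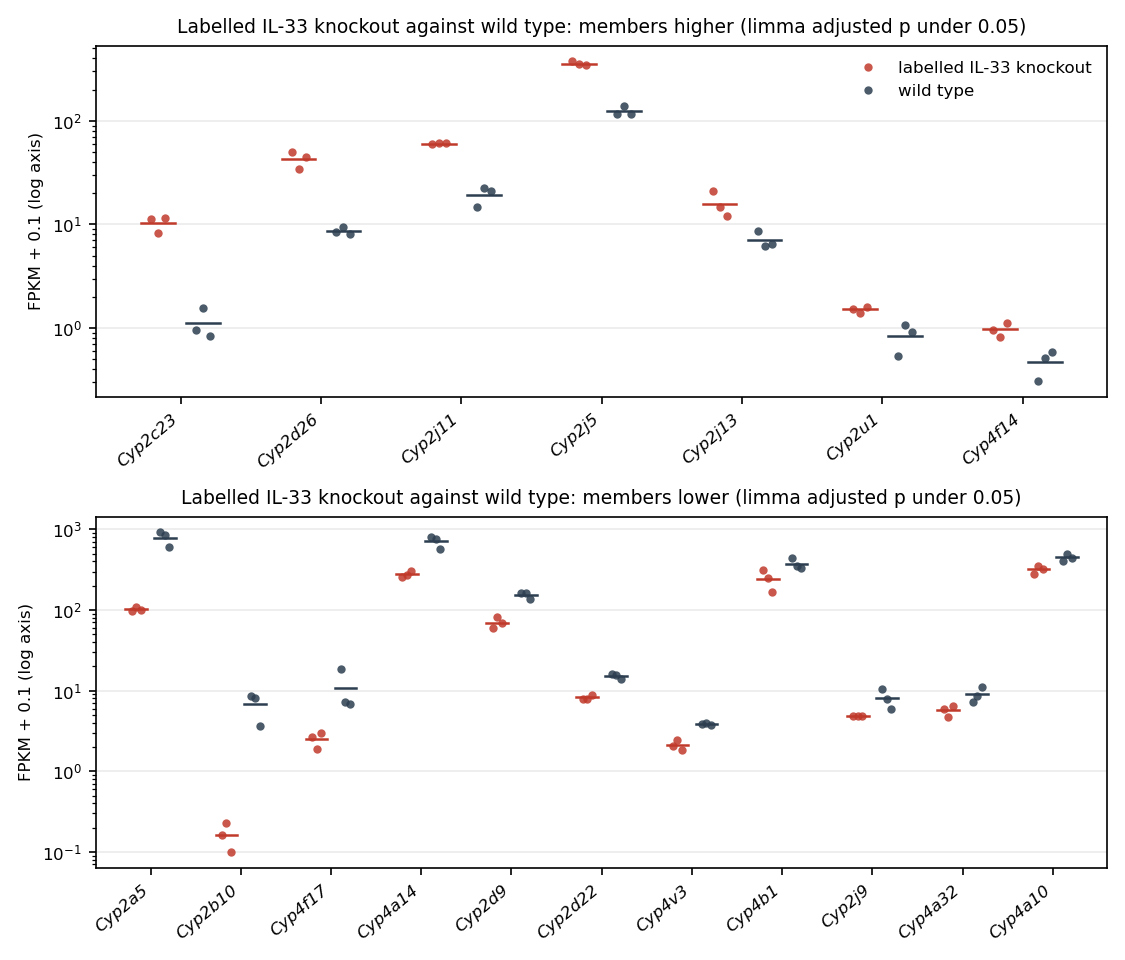
FPKM plus 0.1 on a log axis for the members called higher (upper panel) and lower (lower panel), with a point for each of 3 labelled IL-33 knockout (left) and 3 wild-type (right) libraries and a line at each mean. All 18 members shown separate the groups, from Cyp2b10 at 0.970% of the wild-type mean to Cyp4a10 at 71.1%, and Cyp2c23 is highest above it at 1010.1%.

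Abundant members that did not pass were Cyp2e1, at 281, 165 and 232 FPKM in labelled IL-33 knockout libraries, against 518, 363 and 265 in wild-type libraries and a change of -0.74 ± 0.27 (SE, adjusted p = 0.0638), and Cyp4a31, at 129, 140.4 and 131 FPKM in labelled IL-33 knockout libraries, against 151, 194 and 153 in wild-type libraries and a change of -0.30 ± 0.11 (SE, adjusted p = 0.0681). Cyp2e1 overlapped between groups and Cyp4a31 did not. Cyp4a12a was at 14.4, 10.7 and 10.3 FPKM in labelled IL-33 knockout libraries, against 15.0, 14.3 and 9.46 in wild-type libraries, a change of -0.11 ± 0.19 (SE, adjusted p = 0.68), and Cyp4a12b at 13.8, 9.24 and 14.1 FPKM in labelled IL-33 knockout libraries, against 6.78, 11.5 and 7.22 in wild-type libraries, a change of 0.51 ± 0.22 (SE, adjusted p = 0.104). Cyp2j6 was at 13.7, 16.2 and 15.5 FPKM in labelled IL-33 knockout libraries, against 13.1, 13.2 and 10.6 in wild-type libraries, a change of 0.29 ± 0.12 (SE, adjusted p = 0.089). For Cyp4a12a and Cyp4a12b the groups overlapped. Over the 31 tested members, 8 were higher and 12 lower without overlap, against 30.2% and 24.3% of all genes. The higher share was thus under that of all genes and the lower share above it. The 34 members under the filter had means of at most 0.490 FPKM. Of these, 2 are named after their values were seen. Cyp1a1 was at 0.582, 0.659 and 0.519 FPKM in labelled IL-33 knockout libraries, against 0.152, 0.241 and 0.213 in wild-type libraries, without overlap and in the same direction as in the PAD4 table. Cyp3a13 was at 0.113, 0.152 and 0.185 FPKM in labelled IL-33 knockout libraries, against 0.647, 0.702 and 0.925 in wild-type libraries, without overlap. Neither was tested.

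Of 17 tested PPAR-alpha targets outside the P450s, 1 was higher and 11 lower. Beside this and the counts below stand the shares of all genes tested in the IL-33 table, 22.2% higher and 16.8% lower. Plin2, which coats lipid droplets, was at 22.9, 24.7 and 24.3 FPKM in labelled IL-33 knockout libraries, against 1352, 1097 and 1088 in wild-type libraries, a change of -5.56 ± 0.11 (SE, adjusted p = 3.06e-07). Pdk4 was at 3.40, 3.82 and 5.33 FPKM in labelled IL-33 knockout libraries, against 453, 341 and 359 in wild-type libraries, a change of -6.22 ± 0.16 (SE, adjusted p = 1.29e-06), and Angptl4, an inhibitor of lipoprotein lipase, changed by -3.36 ± 0.17 (SE, adjusted p = 2.21e-05). The receptor gene Ppara was at 3.64, 3.21 and 2.68 FPKM in labelled IL-33 knockout libraries, against 3.36, 3.47 and 5.67 in wild-type libraries, and it did not pass. Of 18 receptors and factors 4 were higher and 3 lower, near the shares of all genes. Among them were Cebpb with -2.26 ± 0.17 (SE, adjusted p = 0.000103) and the glucocorticoid receptor gene Nr3c1 with 1.01 ± 0.15 (SE, adjusted p = 0.00195). Of 7 redox partners 1 was higher, Cyb5b of the outer mitochondrial membrane with 1.13 ± 0.11 (SE, adjusted p = 0.000297). Androgen-raised genes were higher for 5 of 8 and lower for 2, with Slc22a30 at 1.76 ± 0.14 (SE, adjusted p = 0.000138), Slc7a13 at 3.23 ± 0.26 (SE, adjusted p = 0.000143) and Odc1 at 0.80 ± 0.16 (SE, adjusted p = 0.00551). Of 14 eicosanoid enzymes 5 were higher and 2 lower. Ephx2, the soluble hydrolase that inactivates the epoxides made by Cyp2c and Cyp2j enzymes, was at 102, 99.3 and 96.8 FPKM in labelled IL-33 knockout libraries, against 201, 255 and 166 in wild-type libraries, a change of -1.03 ± 0.15 (SE, adjusted p = 0.00152). The prostaglandin D synthase gene Ptgds changed by 1.18 ± 0.21 (SE, adjusted p = 0.00362) and Alox12 by 0.61 ± 0.11 (SE, adjusted p = 0.00421). Of 4 AhR targets outside the P450s 2 were lower, Nqo1 with -1.01 ± 0.21 (SE, adjusted p = 0.0068) and Tiparp with -0.68 ± 0.23 (SE, adjusted p = 0.0485). Of 9 P450s of higher families 2 were higher and 1 lower: Cyp51 of cholesterol synthesis changed by 2.82 ± 0.12 (SE, adjusted p = 1.14e-05), Cyp20a1 by 0.45 ± 0.12 (SE, adjusted p = 0.02) and Cyp27b1, which activates vitamin D, by -3.22 ± 0.21 (SE, adjusted p = 6.16e-05). Of 20 proximal tubule markers 14 were higher and 0 lower, with sums of 3573, 2690.2 and 3087 FPKM in labelled IL-33 knockout libraries, against 1237, 1334 and 1127 in wild-type libraries. Of 8 tested macrophage markers 7 were higher and 1 lower, with sums of 80.6, 86.7 and 83.7 FPKM in labelled IL-33 knockout libraries, against 32.1, 22.5 and 41.4 in wild-type libraries. The lower macrophage marker was Cd68, with -1.35 ± 0.22 (SE, adjusted p = 0.00281). Liver markers, of which 3 of 7 tested were higher and 1 lower, summed to 256, 302 and 250.4 FPKM in labelled IL-33 knockout libraries, against 115, 120.4 and 142 in wild-type libraries. Of the other lists, 5 of 8 fibroblast markers were higher, and 0 of 5 smooth muscle and 0 of 8 endothelial markers changed. Of 5 tested neutrophil markers 1 was lower, Lcn2, which injured tubules also make, at 16.5, 24.2 and 16.6 FPKM in labelled IL-33 knockout libraries, against 230.1, 291 and 608 in wild-type libraries. S100a9, a more specific neutrophil gene, was at 2.45, 4.61 and 2.92 FPKM in labelled IL-33 knockout libraries, against 3.84, 1.23 and 3.00 in wild-type libraries, with overlap. The part of these markers in the P450 values was not tested.

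Across both comparisons, which share no library, 29 members were tested in each table. Cyp2c23, Cyp2j5, Cyp2j11 and Cyp2j13 were higher in both, and Cyp2b10 was lower in both. Cyp2a5 and Cyp4a10 were higher in the PAD4 knockout and lower in the labelled IL-33 knockout, and Cyp4f14 was the reverse. The IL-33 call of Cyp4f14 was a low-level one, lost in 4 of 16 other settings. A test of the difference itself, a limma contrast of 4 group means over 12 libraries, found 15 of 29 members to differ, 12 with the PAD4 change above and 3 with it below the IL-33 change. Of all 13010 genes so tested 12.4% differed, 6.23% and 6.18% in these directions. Cyp2a5 differed most, by 4.69 ± 0.73 (SE, adjusted p = 0.00117). Of 11 family 4 members tested 8 differed, 7 of them with the higher change in the PAD4 knockout. These included Cyp4a31 by 2.42 ± 0.45 (SE, adjusted p = 0.00327), Cyp4a14 by 2.40 ± 0.56 (SE, adjusted p = 0.0124) and Cyp4a12a by 2.25 ± 0.32 (SE, adjusted p = 0.00075). In the other direction, Cyp2d26 differed by -2.05 ± 0.31 (SE, adjusted p = 0.000978), Cyp4f14 by -1.55 ± 0.24 (SE, adjusted p = 0.00123) and Cyp2c23 by -1.31 ± 0.33 (SE, adjusted p = 0.0191). The Cyp2c23 difference was lost in 5 of 22 other settings, those with a pseudocount of 0.1 or 0.5 among them. For Cyp2j5 the difference was 0.30 ± 0.55 (SE, adjusted p = 0.777) and did not pass. Set, batch and knockout cannot be told apart in this contrast. Sums of Cyp4a went opposite ways in the sets, and those of Cyp2j did not. Cyp4a members summed to 729, 201 and 286 FPKM in PAD4 knockout libraries, against 89.8, 91.8 and 121 in wild-type libraries, and in the IL-33 table to 701, 788 and 789 FPKM in labelled IL-33 knockout libraries, against 1396, 1492 and 1196 in wild-type libraries. Cyp2j members summed to 102, 26.6 and 59.5 FPKM in PAD4 knockout libraries, against 21.2, 21.02 and 27.6 in wild-type libraries, and in the IL-33 table to 473, 451 and 438 FPKM in labelled IL-33 knockout libraries, against 164, 190.3 and 159.7 in wild-type libraries. The Cyp2j sum was above every wild type in both tables except for PAD4 knockout library 2, which lay between the wild types.

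**Figure D5:**
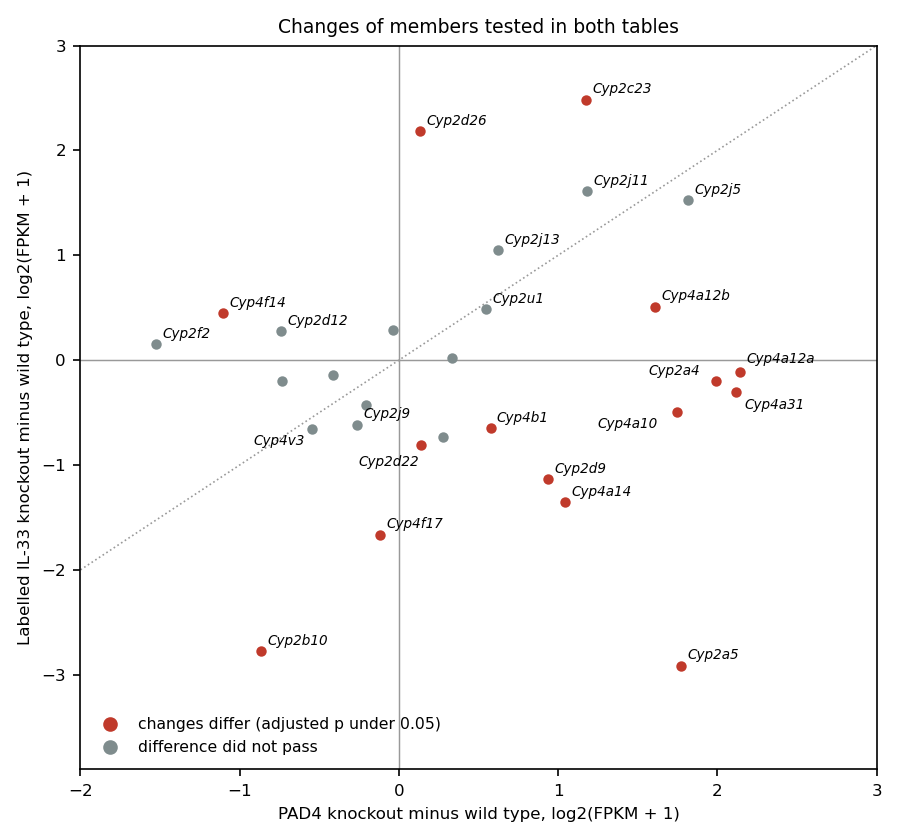
Each point is 1 of 29 members tested in both tables, with its change in the PAD4 knockout (x axis) and in the labelled IL-33 knockout (y axis) on the log2(FPKM + 1) scale; the dotted line marks equal changes and red marks the 15 members whose changes differ. Cyp2a5 stands at 1.77 and -2.91, and Cyp2j5 lies near the line at 1.82 and 1.52.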

How the data were processed

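The 2 gene tables hold FPKM that the authors deposited, 1 table a set, per the file headers. The submitters' processing notes list FastQC, cutadapt, HISAT2, StringTie, DESeq2 and edgeR. Versions, order and genome build are not stated there. All 12 columns belonged to a sample, and 0 belonged to none. FPKM do not show depth, and depth limits the low members most.

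Members and lists were chosen with earlier results of these data known. Genes with a mean of at least 0.5 FPKM over the 6 libraries of a table were log-transformed as log2(FPKM + 1) and tested by limma 3.58.1 under R 4.3.3 (empirical Bayes with a mean-variance trend, two-sided). Benjamini-Hochberg adjustment ran over every gene tested in a comparison, and adjusted p-values under 0.05 passed. The fit was tested on simulated data. Members are given in every library where they passed or had a mean of at least 10 FPKM, and up to 3 genes of each list by smallest adjusted p. Some list genes are counted but not reported by name here. Promoters came from RefSeq (GRCm38.p6), used for sequence alone. Alternatives were another pseudocount, filter or scaling, no trend, a replicate block, and leaving out each library.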

Additional observations from a re-analysis of the deposited data

Results flagged for a closer look

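The change in the PAD4 knockout and the change in the labelled IL-33 knockout differed for 15 members by limma's contrast of 4 group means (PAD4 change minus IL-33 change, log2(FPKM + 1), SE, adjusted over 13010 genes). The PAD4 change was above the IL-33 change for Cyp2a5 by 4.69 ± 0.73 (SE) (adjusted p = 0.00117), Cyp4a31 by 2.42 ± 0.45 (SE) (adjusted p = 0.00327) and Cyp4a14 by 2.40 ± 0.56 (SE) (adjusted p = 0.0124). The same held for Cyp4a12a by 2.25 ± 0.32 (SE) (adjusted p = 0.00075), Cyp4a10 by 2.23 ± 0.52 (SE) (adjusted p = 0.0121) and Cyp2a4 by 2.19 ± 0.49 (SE) (adjusted p = 0.00929). Smaller differences in this direction were those of Cyp2d9 by 2.07 ± 0.48 (SE) (adjusted p = 0.0116), Cyp2b10 by 1.91 ± 0.35 (SE) (adjusted p = 0.00307) and Cyp4f17 by 1.55 ± 0.44 (SE) (adjusted p = 0.0312). The smallest were those of Cyp4b1 by 1.23 ± 0.35 (SE) (adjusted p = 0.031), Cyp4a12b by 1.10 ± 0.34 (SE) (adjusted p = 0.0481) and Cyp2d22 by 0.95 ± 0.22 (SE) (adjusted p = 0.0121). Of these calls, Cyp4a12b was lost in 14 of 22, Cyp4b1 in 11 of 23 and Cyp4f17 in 7 of 23 other settings. The PAD4 change was below the IL-33 change for Cyp2c23 by -1.31 ± 0.33 (SE) (adjusted p = 0.0191), Cyp4f14 by -1.55 ± 0.24 (SE) (adjusted p = 0.00123) and Cyp2d26 by -2.05 ± 0.31 (SE) (adjusted p = 0.000978). The Cyp2c23 call was lost in 5 of 22 other settings, among them pseudocounts of 0.1 and 0.5. Its knockout means stood at 611% of the wild-type mean in the PAD4 table and 1010% in the IL-33 table. Cyp4a14, Cyp2d9 and Cyp4b1 passed here although their PAD4 change alone did not (1.04, 0.94 and 0.57), and Cyp4a12a, Cyp4a31 and Cyp2a4 passed although their IL-33 change alone did not (-0.11, -0.30 and -0.20). Knockout and set were the same split, so that they cannot be told apart. The part of colon and lung markers, which were lower in the PAD4 knockout, was not tested.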

How the results depend on the processing

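Under the alternatives run, no called change of a member reversed its sign. The PAD4 calls depended on the filter. Without a filter 0 members were higher and 0 lower, with or without the mean-variance trend (the setting without both was added after seeing the data). At a mean of at least 2 FPKM 6 were lower, because Cyp2b10, Cyp2d12, Cyp4f14 and Cyp4f40 were under that filter and not tested. Of the higher members, Cyp2c23, Cyp2j13 and Cyp4a12b were under it and not tested either. The higher and lower members still tested there kept their calls. Leaving out each library in turn gave 3 to 13 higher and 8 to 14 lower members and a median change of -0.05 to 0.09 in the PAD4 table. It gave 5 to 8 higher, 8 to 10 lower and a median of -0.32 to -0.15 in the IL-33 table, and 12 to 15 differences between the changes. The lowest count, 3, came without PAD4-set wild-type library 1, where 357 of all 13986 genes were higher, against 1243 with every library. The IL-33 median change was 0.013 without a filter, again with or without the trend, and 9 differences passed with neither filter nor trend. More genes are tested without a filter, most of them low. Over single members and settings, 263 PAD4 values, 264 IL-33 values and 299 differences kept their call, and 70, 40 and 41 lost it. Calls most often lost were Cyp2d12, Cyp2a5 and Cyp2j11 for the PAD4 change, Cyp4b1, Cyp4a32, Cyp2j9 and Cyp2u1 for the IL-33 change, and Cyp4a12b, Cyp4b1 and Cyp4f17 for the difference.

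Replicate numbers did not pair the libraries: deviations of same-numbered libraries correlated at -0.146 to -0.016 in the PAD4 table and -0.014 to 0.134 in the IL-33 table. With the number as a replicate block, 10 members were higher and 10 lower in the PAD4 knockout, 7 and 12 in the labelled IL-33 knockout, and 15 changes differed. The block lost the PAD4 call of Cyp2d12 and the differences of Cyp2d22 and Cyp4b1, so that the counts do not stand for the same members.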

Other observations

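Androgen-raised kidney genes outside the P450s did not move alike over the sets. Slco1a1, an organic anion transporter, changed by 0.99 ± 0.18 (SE, adjusted p = 0.00109) in the PAD4 knockout and by -0.95 ± 0.23 (SE, adjusted p = 0.0156) in the labelled IL-33 knockout in limma. Kap, the kidney androgen-regulated protein gene, changed by 1.41 ± 0.31 (SE, adjusted p = 0.00397) in the PAD4 knockout and by -0.53 ± 0.17 (SE, adjusted p = 0.0429) in the labelled IL-33 knockout. Aoc1, a diamine oxidase, changed by -1.67 ± 0.31 (SE, adjusted p = 0.00121) and 1.05 ± 0.22 (SE, adjusted p = 0.00792) in the same order, whereas Slc22a30 and Slc7a13 were higher in both knockouts. By the limma contrast, the PAD4 change minus the IL-33 change was 1.94 ± 0.28 (SE, adjusted p = 0.000701) for Slco1a1, 1.94 ± 0.42 (SE, adjusted p = 0.00777) for Kap and -2.72 ± 0.41 (SE, adjusted p = 0.000917) for Aoc1.

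Il33 itself was at 0.889, 1.58 and 1.28 FPKM in PAD4 knockout libraries, against 3.57, 5.29 and 3.28 in wild-type libraries of the PAD4 table, a change of -1.15 ± 0.23 (SE, adjusted p = 0.00209). Colon markers, and most lung and fibroblast markers, were lower in the same knockout libraries, and their part in this change was not tested.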
